A study of Homo sapiens with 2 samples.

Results

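The protein kinase C (PKC) family and the related protein kinase D (PKD) genes were examined in cultures of BT549, a human line derived from a breast carcinoma, with and without overexpression of the long non-coding RNA gene SNHG15. The genes were chosen by name, as 10 symbols (PRKCA, PRKCB, PRKCD, PRKCE, PRKCH, PRKCI, PRKCQ, PRKCZ, PRKD1 and PRKD2), and 8 of these had a row among the 19029 genes of the deposited table. PRKCB and PRKCQ were not analysed here. The names were proposed with the counts and ratios of these libraries already known, so the values below are a description with no test. PRKD3, a further PKD gene in the table, is given beside them. Both groups were BT549 cells: the SNHG15 group carried the overexpressed gene and the vector group, titled pcIp2, carried a control vector. Each group held 1 library of total RNA, and the sources used here do not say whether the cells were 1 clone or a pool. No difference below therefore has a replicate check, and the 95% intervals cover counting error only.

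Protein kinases C are serine/threonine kinases that carry signals from the membrane. Receptors activate phospholipase C, which releases diacylglycerol and inositol trisphosphate. Classical isoforms (such as PRKCA and PRKCB) need both diacylglycerol and calcium, calcium-independent isoforms (PRKCD, PRKCE, PRKCH, PRKCQ) need diacylglycerol alone, and atypical isoforms (PRKCI, PRKCZ) respond to neither and work in complexes with PAR6 and other polarity proteins. The PKD genes (PRKD1, PRKD2, PRKD3) encode diacylglycerol-binding kinases of another kinase group that PKC isoforms phosphorylate and activate. In epithelial cells the atypical isoforms are known for apical polarity, and PRKCA has been studied for its role in mesenchymal-like breast cancer cells.

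The SNHG15 library held 16570496 counts and the vector library 20799017. SNHG15 itself (34450 counts against 466) was 85.6-fold higher in the library labelled as overexpressing it (78.1 to 93.98). All 5 mesenchymal markers (VIM, FN1, CDH2, ZEB1, SPARC) were present in both libraries, with a summed level of 3577 CPM (counts scaled to library size) with SNHG15 and 3677 CPM with the vector. Singly they differed, with ratios from 0.555 (FN1) through 1.00218 (VIM) to 5.28 (CDH2). The epithelial markers KRT8, CDH1 and CLDN7 summed to 27.1 CPM and 39.1 CPM, and singly had ratios of 0.718 (KRT8), 1.26 (CDH1, 0.510 to 3.16) and 0.0579 (CLDN7, 2 counts against 40). The neural markers summed to 11.5 CPM and 11.1 CPM, with a ratio of 1.35 (1.07 to 1.69) for SYP and 0.407 (0.250 to 0.644) for SNAP25. EPCAM, RBFOX3 and the haematopoietic markers PTPRC and CD3E were not analysed here. The part of these marker levels in the results was not tested.

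Of the 6 chosen genes that averaged 1 CPM or more, 1 was beyond 2-fold, meaning that the whole 95% interval of its ratio lay past 2-fold, and it was higher in the SNHG15 library. This was PRKCZ, which encodes the atypical isoform PKC zeta. None of the 6 was beyond 2-fold lower. The same limit was passed upwards by 2.20% and downwards by 2.45% of the 12934 genes that averaged 1 CPM or more. By a looser rule (interval excluding 1 and a ratio of at least 1.5-fold) 1 of the 6 was higher and 0 lower, against 13.3% and 12.2% of all compared genes. Over all compared genes these were 1725 higher and 1574 lower, and by library totals 2380 higher and 1151 lower. Beyond 2-fold they were 285 higher and 317 lower, and by library totals 366 and 237. Since the names were chosen with this comparison known, nothing is read from these counts. PRKCH and PRKD1 were below 1 CPM and were not compared. The median log2 ratio (prior count of 2) of the 6 genes was 0.03, beside 0.02 for all compared genes. As the libraries come from bulk cultures, fewer cells expressing a gene and less RNA per cell cannot be told apart.

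The sequences before the PRKCZ starts are shown because this gene has several promoters, and gene counts do not say which was used. PRKCZ (ENSG00000067606) spans chr1:2050470-2185395 on the plus strand (hg38), and GENCODE 29 gives it 26 transcripts. Of these, 4 start within 1 kb of the most upstream start. Another 20 start at an internal promoter window or anywhere downstream of it, as far as chr1:2168975. These ranges are unlike, so the 20 are not the transcripts of that window, and RefSeq gives the gene 4 promoter windows. RefSeq (GRCh38.p14) places the starts of the distal and the internal window 23.3 kb apart. The full kinase is known from the distal start, though not every transcript annotated upstream is protein coding or reaches the 3′ end of the gene. An internal start is known in brain for PKM zeta, a form that lacks the regulatory domain and is constitutively active. The stretch before the distal start (chr1:2050161-2050410), the part of the PRKCI window free of annotated exons (chr3:170222174-170222364), and 30 bases within the internal PRKCZ window (chr1:2073601-2073630) read as follows on the plus strand. Capitals mark CCAAT in either orientation (ATTGG on the strand shown) in the distal PRKCZ and PRKCI sequences, and TGACGTCA in the internal one.
PRKCZ distal start: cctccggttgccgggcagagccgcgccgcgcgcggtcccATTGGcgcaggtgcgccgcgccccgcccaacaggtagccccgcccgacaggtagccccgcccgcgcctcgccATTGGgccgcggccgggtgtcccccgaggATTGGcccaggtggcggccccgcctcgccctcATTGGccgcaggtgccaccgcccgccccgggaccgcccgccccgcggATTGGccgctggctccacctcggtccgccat
PRKCI start: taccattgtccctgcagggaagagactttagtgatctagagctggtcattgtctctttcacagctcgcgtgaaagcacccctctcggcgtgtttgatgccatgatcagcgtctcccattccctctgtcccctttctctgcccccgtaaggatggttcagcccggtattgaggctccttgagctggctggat
PRKCZ internal start: ttgttttcctgTGACGTCAgcgtcagctcc

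The distal PRKCZ stretch was 79.6% G or C and held CCAAT 5 times. It held the GC box GGGCGG 7 times over both strands, sharing 0 bases with a CCAAT match. Among 35116 RefSeq windows of 250 bases before a start, 32.01% held CCAAT at least once and 0.319% at least 5 times. GGGCGG was found at least 7 times in 1.12% of those windows, and at least once in 42.6% of them and in 12 of the 15 windows of the 8 kinase genes. Of these 15 windows, 12 held no CCAAT, and the other 2 besides the distal PRKCZ window were both of PRKD2 with 1 match each. The PRKCI stretch shown, 191 of the 250 bases, was 54.5% G or C with 0 matches of either motif. The full 250 bases before the PRKCI start held GGGCGG 1 time and CCAAT 0 times. The internal PRKCZ sequence holds TGACGTCA, the palindromic cAMP response element, whose first base lies 52 bases before the RefSeq start of that window. GENCODE transcript PRKCZ-202 starts farther upstream, at chr1:2073462, so this stretch lies within the span of that transcript. Unlike the PRKCI stretch, it was not trimmed for annotated exons. This motif was found in 1 of the 15 windows and in 1.65% of all windows. All motifs were searched on both strands, in the same 250 bases of the kinase windows as of all others. The AP-1 motif TGANTCA was found in 0 of the 15, against 6.57% of all windows. The TATA box motif TATAAA was likewise in 0 of the 15, against 10.7% of all. These matches describe letters only, and no measurement here bears on the binding of a factor or the choice of a start.

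PRKCZ had 246 counts with SNHG15 and 24 with the vector. On the deposited FPKM scale its level was 1.24 (1.09 to 1.40) against 0.0960 (0.0615 to 0.143). For SNHG15 itself, 34450 counts and an FPKM of 262.0 imply a length divisor longer than its locus (chr7:44983023-44986961). FPKM of different genes may therefore not follow message abundance, while the divisor cancels in a gene's ratio between libraries. Scaled to the library, it stood at 14.3 CPM against 1.20 CPM, a ratio of 11.9 (7.79 to 18.9) and a log2 ratio of 3.46. The intervals of the levels did not overlap. By its ratio PRKCZ ranked at 24 of the 12934 compared genes, and at 20 by the lower bound of the interval. Its level in the vector library rests on only 24 counts, which sets the width of the interval.

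PRKCI (ENSG00000163558, chr3:170222365-170305981), which encodes PKC iota, the atypical isoform most studied as an oncogene in epithelial cancers, leaned the other way. It had 75 counts with SNHG15 and 126 with the vector, or 4.35 CPM and 6.31 CPM. The ratio was 0.689 (0.511 to 0.924), equal to 1.45-fold lower (1.08 to 1.96), which excludes 1 but stays short of 1.5-fold. With the GC trend removed its log2 ratio was −0.73 in place of −0.53, and PRKCI then passed the 1.5-fold rule on the lower side, as it also did with the deeper library thinned (−0.63).

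The balance of the atypical pair needs no scaling between libraries, because both genes are read in the same library. It still carries the GC trend, and with that trend removed the log2 ratios were 3.66 for PRKCZ and −0.73 for PRKCI. PRKCZ took 76.6% of the pair's counts in the SNHG15 library (71.6 to 81.2, Clopper-Pearson) and 16.0% in the vector library (10.5 to 22.9). By deposited FPKM, PRKCZ was at 2.70 times the value of PRKCI in the SNHG15 library and at 0.157 times in the vector library. The PRKCZ to PRKCI ratio was thus 17.2-fold higher (10.1 to 29.8) in the SNHG15 library. In that library PRKCZ had the larger count and FPKM of the pair, and in the vector library PRKCI had. Summed over both genes, atypical counts stood at 18.6 CPM against 7.51 CPM, a ratio of 2.48 (2.03 to 3.03).

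**Figure D1:**
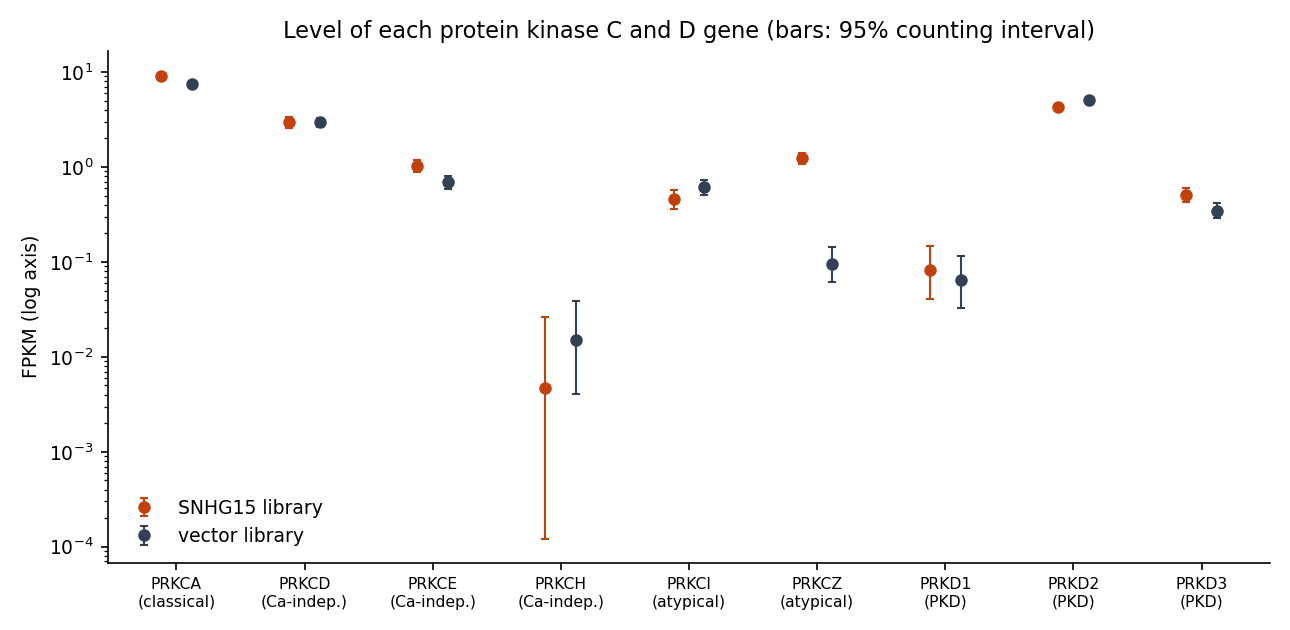
FPKM (log axis) of the 9 kinase genes in the SNHG15 library (orange) and the vector library (slate), with 95% counting intervals as bars and the isoform class under each name (Ca-indep. for calcium-independent). PRKCA is the highest gene in both libraries at 9.12 and 7.55, and PRKCZ shows the widest gap among the genes above 1 CPM, from 0.0960 to 1.24.

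PRKCA (ENSG00000154229, chr17:66302636-66810743), the classical isoform PKC alpha, had the highest count and FPKM of the kinase genes in both libraries. Its FPKM was 9.12 (8.71 to 9.55) in the SNHG15 library and 7.55 (7.22 to 7.90) in the vector library. That was 46.2% and 43.2% of the summed FPKM of the 9 kinase genes measured. With 1801 and 1872 counts it is the best measured of the set, and its ratio was 1.11 (1.04 to 1.19) at 104.4 CPM against 93.7 CPM. The interval excluded 1 by little. The log2 ratio was 0.16 with TMM scaling, 0.27 with library totals, 0.11 with DESeq2 size factors and 0.07 with the GC trend removed.

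Among the calcium-independent, diacylglycerol-dependent isoforms PRKCD and PRKCE were measured and PRKCH was barely detected. PRKCD (ENSG00000163932, chr3:53156009-53192717), which encodes PKC delta, a kinase known for roles in apoptosis, had 226 and 281 counts, or 13.1 CPM with SNHG15 and 14.1 CPM with the vector. The ratio was 0.931 (0.778 to 1.11) and the interval included 1. Its direction followed the scaling, since the log2 ratio was −0.10 with TMM, 0.01 with library totals and 0.02 with the GC trend removed. PRKCE (ENSG00000171132, chr2:45651345-46187990), PKC epsilon, had 202 and 171 counts. It was at 11.7 CPM with SNHG15 and 8.56 CPM with the vector, a ratio of 1.37 (1.11 to 1.69) that excluded 1 without reaching 1.5-fold. The PRKCE to PRKCD ratio within a library was 0.894 in counts with SNHG15 and 0.609 with the vector, 1.47-fold higher (1.11 to 1.94). It too carries the GC trend, and with that trend removed the log2 ratio of PRKCE was 0.35 in place of 0.45. PRKCH (ENSG00000027075, chr14:61187559-61550976), PKC eta of epithelia, had 1 count with SNHG15 and 4 with the vector, a ratio of 0.289 with an interval from 0.00588 to 2.92. At this depth no difference was detectable for PRKCH.

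The PKD genes included the kinase gene with the second highest count and FPKM of the set. PRKD2 (ENSG00000105287, chr19:46674275-46717127, minus strand), which encodes PKD2, a kinase of the trans-Golgi network and of signalling to nuclear targets, had 880 and 1314 counts. Its FPKM was 4.31 (4.03 to 4.61) in the SNHG15 library and 5.13 (4.86 to 5.42) in the vector library, and the intervals did not overlap. The ratio of its scaled counts (51.0 CPM against 65.8 CPM) was 0.775 (0.711 to 0.845), or 1.29-fold lower. Transcript GC content goes with this value: PRKD2 lies at percentile 90.4 of GC, and its log2 ratio was −0.11 with the GC trend removed in place of −0.37. PRKD1 (ENSG00000184304, chr14:29576479-30191898, minus strand), the PKD isoform reported as silenced in many invasive breast cancers, had 11 counts in each library, a ratio of 1.16 (0.455 to 2.94). PRKD3 (ENSG00000115825, chr2:37250502-37324808, minus strand) had 140 and 119 counts and a ratio of 1.36 (1.06 to 1.75), short of 1.5-fold. PRKD3 lies at percentile 7.89 of GC, and its log2 ratio was 0.23 with the GC trend removed in place of 0.44. The PRKCA to PRKD2 ratio within a library was 1.44-fold higher (1.29 to 1.601) with SNHG15, at 2.05 against 1.42 in counts. This value and its interval still carry the GC trend. With that trend removed the log2 ratios lay closer together, at 0.07 for PRKCA and −0.11 for PRKD2, in place of 0.16 and −0.37.

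**Figure D2:**
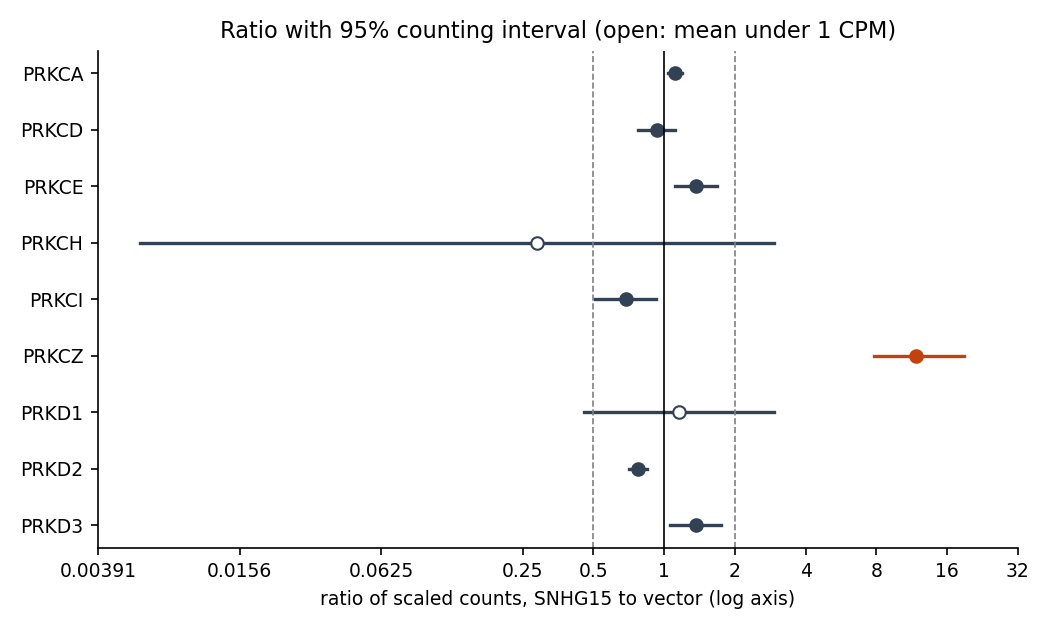
Ratio of scaled counts (SNHG15 to vector) (horizontal log axis) for 9 kinase genes, with 95% counting intervals as lines, dashed lines at 2-fold and open points for a mean under 1 CPM. The PRKCZ interval, 7.79 to 18.9, lies wholly beyond 2-fold, the compared others lie between 0.689 and 1.37, and the intervals of PRKCH and PRKD1 are wide.

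Ordered by FPKM, the SNHG15 library ran from PRKCA through PRKD2 (4.31), PRKCD (2.99), PRKCZ (1.24), PRKCE (1.02), PRKD3 (0.514), PRKCI (0.457) and PRKD1 (0.0815) to PRKCH (0.00471). In that order PRKCZ and PRKCE, and PRKD3 and PRKCI, were neighbours whose counting intervals overlapped. The vector library ran from PRKCA through PRKD2 (5.13), PRKCD (2.96), PRKCE (0.690), PRKCI (0.612), PRKD3 (0.348) and PRKCZ (0.0960) to PRKD1 (0.0649) and PRKCH (0.0150). There PRKCE and PRKCI overlapped, as did each neighbouring pair from PRKCZ down. The 3 genes of highest FPKM kept their order, while PRKCZ stood in place 4 with SNHG15 and place 7 with the vector. This order between genes carries the limit of FPKM given above. Its interval in the vector library overlapped that of PRKD1, a gene at the edge of detection, and with SNHG15 it overlapped that of PRKCE.

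By class, the classical gene PRKCA made up 46.2% of the summed FPKM with SNHG15 and 43.2% with the vector. The calcium-independent genes PRKCD, PRKCE and PRKCH made up 20.3% and 20.97%, and PKD genes 24.9% and 31.7%. The atypical share was 8.57% against 4.05%, of which PRKCZ alone was 6.26% and 0.550%. These shares rest on FPKM, whose divisor may not be message length, so they may not be shares of messages. Counts summed over the 9 genes were at 207.6 CPM against 196.3 CPM, a ratio of 1.06 (1.01 to 1.11). The family total thus differed little between the libraries, beside the 2.48 of the atypical pair.

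**Figure D3:**
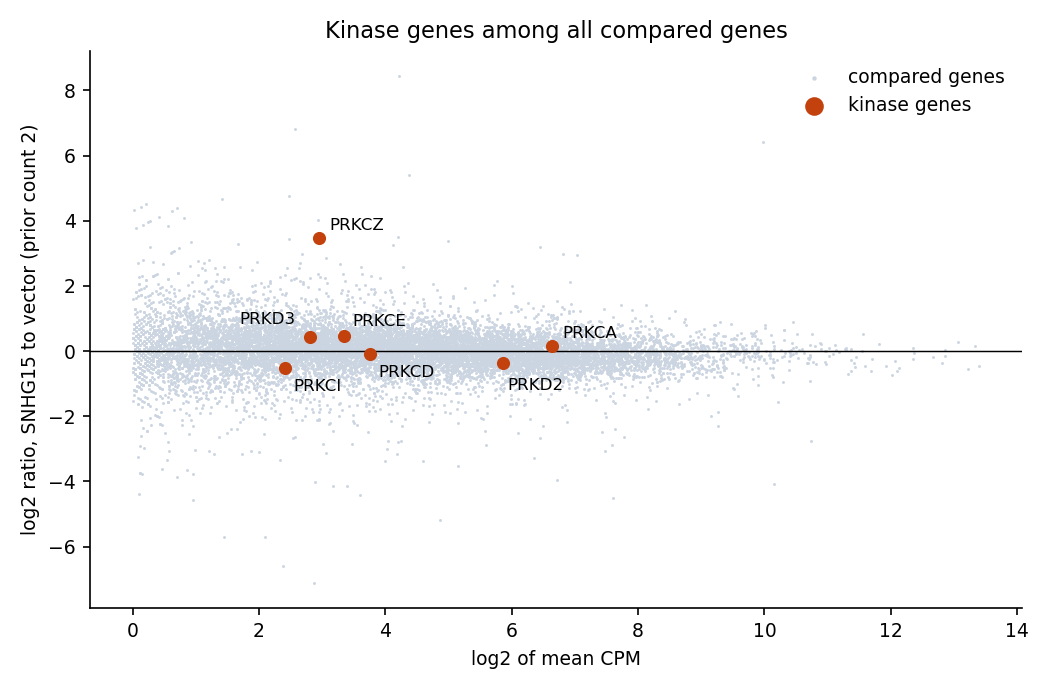
Each grey point is a compared gene, placed by the log2 of its mean CPM (horizontal) and its log2 ratio (SNHG15 to vector) (vertical), with the 7 compared kinase genes (PRKD3 among them) in orange. PRKCZ, at 3.46, stands at the upper edge of the cloud, and the other 6 kinase genes lie between −0.53 and 0.45.

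The PRKCZ locus was read gene by gene because PRKCZ overlaps other genes, and without knowledge of strand reads of a gene and its antisense partner cannot be told apart. PRKCZ-AS1, a long non-coding RNA wholly within PRKCZ on the opposite strand, had 9 counts with SNHG15 and 8 with the vector, a ratio of 1.30 (0.446 to 3.88). FAAP20, a Fanconi anaemia protein gene that overlaps the 3′ end of PRKCZ by 935 bases on the opposite strand, had 1698 and 2378 counts and a ratio of 0.827 (0.776 to 0.880). Neither overlapping gene was higher by the 1.5-fold rule. Of the 10 nearest compared genes on each side, 1 was higher by that rule, 4 were lower and 15 neither, and none was beyond 2-fold higher or lower. Their median log2 ratio was −0.10, with a range from −1.11 to 1.04, and the median was 0.02 with the GC trend removed. The downstream neighbour SKI, a repressor of TGF-beta signalling, had a ratio of 0.943 (0.898 to 0.991).

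**Figure D4:**
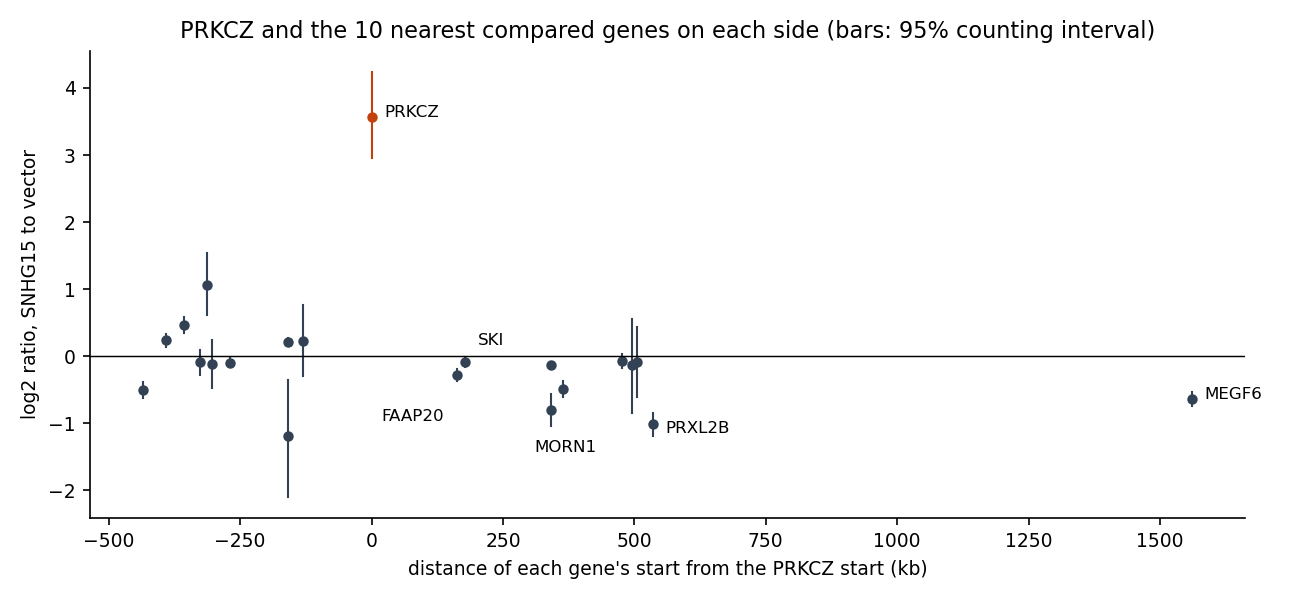
Log2 ratio (SNHG15 to vector) (vertical, with 95% counting intervals) for PRKCZ and the 10 nearest compared genes on each side, placed by the distance of each gene's start from the PRKCZ start in kb. PRKCZ stands alone at a ratio of 11.9, while FAAP20, SKI and the others have ratios between 0.437 and 2.09.

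The neighbourhoods of the other kinase genes were read the same way. Median log2 ratios of the 20 neighbours were 0.25 around PRKCI, against −0.53 for the gene itself, and 0.33 around PRKCD, against −0.10. Around PRKCA the median was 0.33, and around PRKCE it was 0.13. Around PRKCH and PRKD1, both on chromosome 14, the medians were 0.50 and 0.35, with 0.30 for the chromosome. Around PRKD2 it was −0.17, beside −0.37 for the gene and −0.21 for the 956 other compared genes of chromosome 19. These medians carry the GC trend. With it removed they were 0.04 around PRKD2 and −0.04 for chromosome 19, 0.06 around PRKCI and −0.01 around PRKCE. Around PRKCA, PRKCD, PRKCH and PRKD1 they were then 0.26, 0.18, 0.33 and 0.25, with 0.26 for chromosome 14. Without that removal PRKCI was lower than its neighbours, whose values ran from −0.18 to 1.51. NDUFAF7, which overlaps PRKD3 on the opposite strand, had a ratio of 1.22 (0.915 to 1.62).

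Genes with a pattern like that of PRKCZ were sought as the 3 protein-coding genes nearest in log2 CPM over the 2 libraries. These were the transcription factor SOX3 (distance 0.36; 11.4 CPM against 1.35 CPM), CCDC88C, a Dishevelled-binding protein also called DAPLE (0.57; 10.9 CPM against 1.602 CPM), and the somatostatin receptor SSTR2 (0.59; 14.5 CPM against 0.801 CPM). With only 2 libraries this likeness says that level and ratio are close. In the authors' deposited table PRKCZ was the only one of the 9 kinase genes with an edgeR adjusted p under 0.05 (2.91e-24), at a log2 ratio of 3.69. In the same authors' deposited table the edgeR adjusted p of the other 8 ran from 0.250 (PRKCI) to 0.988 (PRKD1). With 1 library per group, the variation between cultures behind those p-values could not be estimated.

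Genes around the kinases were taken from 9 lists by role, 81 genes in all, of which 59 were compared. PRKD3, already given among the kinase genes, is also a member of 1 list and counts among the 59. By the 1.5-fold rule 7 were higher and 9 lower, and the median log2 ratio was 0.05, beside 0.02 for all compared genes. The split followed the scaling, with 13 higher and 7 lower by library totals and 7 higher and 13 lower by DESeq2 size factors. The background shares given above are those with TMM scaling. Over all compared genes the matching counts were 2380 higher and 1151 lower by library totals. By DESeq2 size factors they were 1531 higher and 1747 lower of 12930. Beyond 2-fold, 3 of the 59 were higher (PDPK1, DGKH and ADD2) and 1 was lower (LLGL2), against 2.20% and 2.45% of all compared genes. With the GC trend removed DGKH no longer passed that limit and WWC1 did, and WWC1 also passed it by library totals.

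Upstream, phospholipase C enzymes produce the diacylglycerol that classical and calcium-independent isoforms bind. Of 14 listed genes 10 were compared, with 0 higher and 2 lower and a median of −0.16. The most abundant, PLCG1, the isoform downstream of receptor tyrosine kinases, was at 244.8 CPM with SNHG15 and 286.1 CPM with the vector, a ratio of 0.856 (0.822 to 0.890). PLCB3, an isoform activated by G proteins, was 1.71-fold lower, at 112.3 CPM against 192.0 CPM, and no longer passed the rule with the GC trend removed (ratio 0.700, 0.662 to 0.740). PLCB2, at 12 counts against 31, was the other lower gene with a ratio of 0.448 (0.210 to 0.897), and its interval reached 1 with the GC trend removed (0.238 to 1.02) and with the deeper library thinned (0.217 to 1.004). With the GC trend removed 1 gene of the list was lower, PLCL2 at 0.633 (0.459 to 0.867). PLCD3 was at 0.942 (0.838 to 1.06).

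Diacylglycerol kinases end the signal by converting diacylglycerol to phosphatidic acid. Of 9 listed genes 5 were compared, with 1 higher and 0 lower. DGKH, the eta isoform, had 92 counts against 34 and was 3.13-fold higher (2.09 to 4.79), its interval just clearing 2-fold. With the GC trend removed the ratio was 2.70 (1.81 to 4.13) and no longer beyond 2-fold. The more abundant DGKZ and DGKD had ratios of 0.838 (0.776 to 0.905) and 1.18 (1.08 to 1.28), and DGKQ one of 0.688 (0.574 to 0.823). Among other diacylglycerol receptors 3 of 10 were compared, and UNC13A, a synaptic priming factor, was lower at 14 counts against 37. UNC13B, its broadly expressed relative, had a ratio of 1.49 (1.34 to 1.65), and the Rac regulator CHN1 one of 0.798 (0.565 to 1.12). UNC13B passed the rule by library totals (1.61, 1.45 to 1.79).

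Newly made PKC is primed by phosphorylation, first by PDPK1 at the activation loop and also by the mTOR complex that holds RICTOR, MAPKAP1 and MLST8, and is dephosphorylated by PHLPP phosphatases. All 7 listed genes were compared, with 2 higher and 0 lower. PDPK1, the kinase that also primes AKT, had 451 counts against 163 and was 3.20-fold higher (2.67 to 3.86). Its reads are uncertain, because the nearby pseudogene PDPK2P is a copy of it and stood the other way, at 19 counts against 43. Pooled, the counts of both were 2.64-fold higher (2.24 to 3.13). PHLPP1 was 1.70-fold higher (1.46 to 1.97), while PHLPP2 had a ratio of 0.834 (0.666 to 1.04). MTOR, MLST8 and MAPKAP1 had ratios of 1.08, 0.955 and 0.929, and RICTOR one of 1.14 (0.811 to 1.61).

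The polarity partners of the atypical isoforms leaned in both directions. Of 10 listed genes 9 were compared, with 1 higher, 2 lower and 6 neither, and a median of 0.05. LLGL2, a mammalian Lethal giant larvae protein that atypical PKC phosphorylates to keep it off the apical membrane, had 42 counts with SNHG15 and 182 with the vector. It was 3.74-fold lower, with a ratio of 0.267 (0.186 to 0.375). PARD6B, an adaptor that joins atypical PKC to CDC42, had 54 counts against 142 and a ratio of 0.440 (0.316 to 0.606). The other PAR6 genes did not pass the rule, with ratios of 0.679 (0.590 to 0.781) for PARD6A and 1.29 (0.957 to 1.73) for PARD6G. By DESeq2 size factors PARD6A passed it on the lower side (0.660, 0.573 to 0.759). WWC1, which encodes KIBRA, a partner and substrate of PKC zeta, was 2.32-fold higher (1.93 to 2.78) at 20.9 CPM against 9.01 CPM, and beyond 2-fold with the GC trend removed (2.45, 2.04 to 2.94) and by library totals (2.51, 2.09 to 3.02). PARD3, the scaffold of the complex, had a ratio of 1.32 (1.15 to 1.504). The 3 most abundant partners, the signalling adaptor SQSTM1, the GTPase CDC42 and LLGL1, had ratios of 1.03, 1.09 and 0.899. Of the epithelial markers, KRT8 stood at 453 counts against 730 (ratio 0.718), CLDN7 at 2 against 40 and CDH1 at 12 against 11 (1.26, 0.510 to 3.16). The part of such markers in the values of LLGL2 and PARD6B was not tested.

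Of 6 PKC anchors 4 were compared, with 1 higher and 1 lower. RACK1, a ribosomal scaffold that holds active PKC, was at 1076 CPM against 777.9 CPM, a ratio of 1.38 (1.35 to 1.41) short of the rule. AKAP12, a scaffold for PKC and protein kinase A, was 2.27-fold higher (1.79 to 2.90). CAVIN3, a caveolar protein that binds PKC delta, was 2.15-fold lower, at 29.4 CPM against 63.2 CPM (ratio 0.466, 0.419 to 0.517). AKAP13, a scaffold that also holds PKD, had a ratio of 1.40 (1.26 to 1.57), which passed the rule by library totals (1.52, 1.36 to 1.70).

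Among 12 PKC substrates 8 were compared, with 1 higher and 1 lower. The higher gene was ADD2, beta adducin of the membrane skeleton, at 547 counts against 64 and a ratio of 9.89 (7.63 to 13.0). Its relatives did not share this: ADD1 had a ratio of 0.789 (0.739 to 0.842), and ADD3 was the lower gene at 15 counts against 33 (0.526, 0.266 to 0.996), a call lost by library totals (0.288 to 1.08). MARCKSL1, at 579.0 CPM against 387.9 CPM, had a ratio of 1.49 (1.45 to 1.54), which passed the rule by library totals (1.62) and with the GC trend removed (1.72), and MARCKS, the classic PKC substrate, one of 1.13 (1.07 to 1.18). PEBP1, the Raf kinase inhibitor protein, was level at 1.003 (0.968 to 1.04), and PPP1R14B, a phosphatase inhibitor, had a ratio of 0.684 (0.653 to 0.717). PPP1R14B passed the rule by DESeq2 size factors (0.665, 0.635 to 0.697).

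All 10 PKD substrates and partners were compared, with 1 higher and 2 lower. HDAC4, a class II histone deacetylase that PKD sends out of the nucleus, was 1.999-fold higher (1.75 to 2.28) at 36.2 CPM against 18.1 CPM. HDAC5 and HDAC7, deacetylases under the same control, had intervals that included 1, with ratios of 1.06 and 1.05. HDAC9 was lower at 12 counts against 34 (ratio 0.409, 0.193 to 0.809), and RIN1, a Ras effector, was lower at 0.650 (0.609 to 0.694). RIN1 no longer passed the rule with the GC trend removed (0.784, 0.734 to 0.836) or by library totals (0.705, 0.661 to 0.752). CTTN, the actin regulator cortactin, had a ratio of 0.673 (0.636 to 0.712), which is 1.49-fold lower and just short of the rule, and PI4KB one of 0.980. CTTN passed the rule by DESeq2 size factors (0.654, 0.618 to 0.691).

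**Figure D5:**
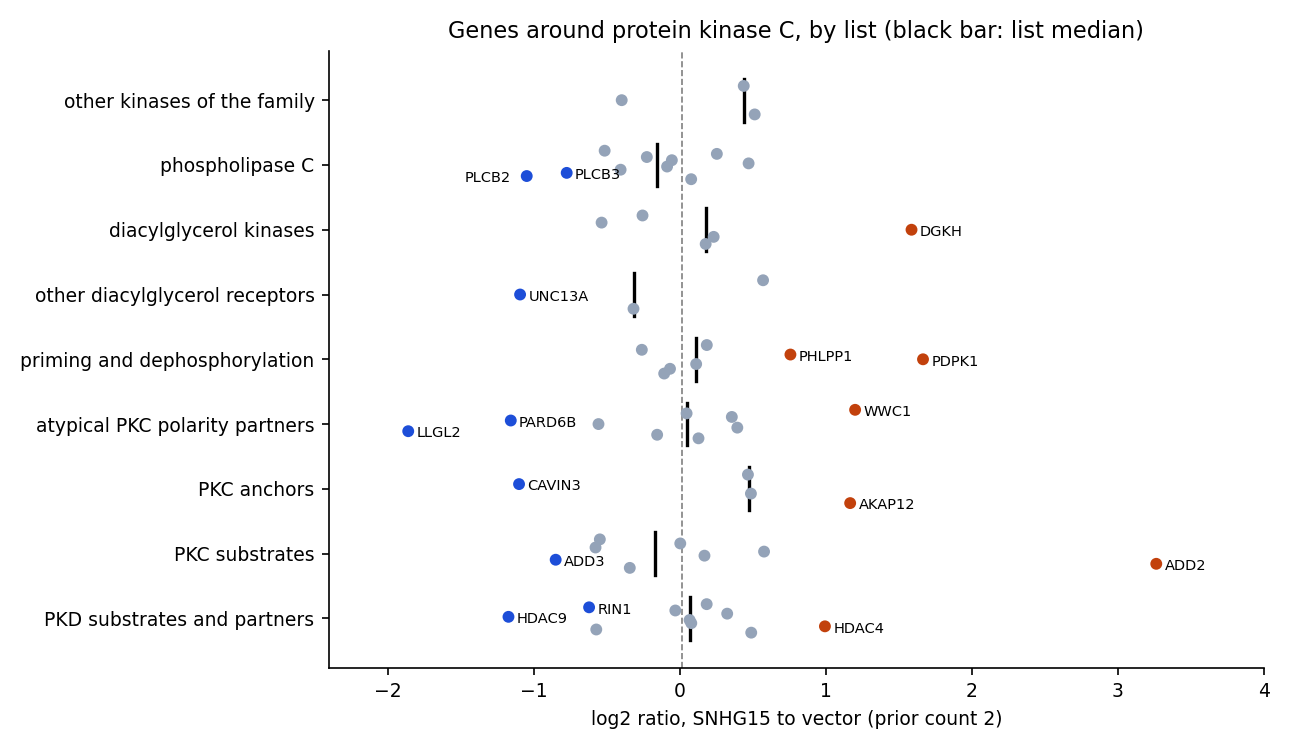
Log2 ratio (SNHG15 to vector) (horizontal, prior count of 2) for the 59 compared genes of 9 lists, with genes higher by the 1.5-fold rule in orange, lower in blue and neither in grey, black bars for list medians and a dashed line for the median of all compared genes. Most genes are grey, and ADD2 and LLGL2 stand farthest out, at 3.26 and −1.86. The kinase gene PRKD3 is among the 59.

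PKN2 and PKN3, protein kinases N that resemble PKC in the catalytic domain, completed the set. PKN3 was at 78.3 CPM against 103.1 CPM (ratio 0.759, 0.708 to 0.814), and PKN2 had a ratio of 1.43 (1.14 to 1.81). Neither passed the 1.5-fold rule, though PKN2 did by library totals (1.56, 1.24 to 1.96).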

How the data were processed

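Gene counts and FPKM of 2 libraries, 1 per group, were taken from the authors' deposited table of 19029 genes. The counts are raw whole numbers per gene, per the file headers, and the authors deposited FPKM in the same table. Reads were placed on hg38, per the submitters' processing notes. For the aligner, counter, annotation and strandedness no name or setting is given in those notes or the labels. The log2 ratios of FPKM and the p-values of the authors' deposited table come from edgeR, per the file headers and table name. Subsets of called genes were not used. Some genes are not reported here.

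TMM factors (1.04 for SNHG15, 0.960 for vector) came from edgeR 4.0.16 (R 4.3.3). Ratios of scaled counts carry an exact conditional-binomial 95% interval, and levels an exact Poisson one. Reads are not independent molecules. A floor of 3 counts is 0.174 CPM (SNHG15) or 0.150 CPM (vector). Compared genes had a mean of at least 1 CPM, with medians of 284 and 315 counts. GC content came from GENCODE 29 (99.7% of compared genes), and its trend was removed by lowess with a span of 0.5 (statsmodels 0.14.6). Across 12895 genes, which are not independent replicates, log2 ratio and GC had a Spearman's rho of −0.32. The functions were tested on simulated data.

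The kinase genes and lists were chosen with earlier results of these data known. Named genes were the kinases, the 3 most abundant compared genes of each list, those beyond 2-fold, genes that overlap a kinase gene, and the 3 genes nearest to PRKCZ. Other list genes that passed the 1.5-fold rule, the remaining PAR6, PHLPP, HDAC, adducin and MARCKS genes with PARD3 and RICTOR, PDPK2P, the pairs of kinases compared within a library, and the neighbours were chosen after their values were seen. Tried as alternatives were library totals, size factors of DESeq2 1.42.0, thinning, GC trend removal, other filters, point ratios, FPKM with pseudocounts of 1 and 0.1, and prior counts of 0.5 and 10.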

Additional observations from a re-analysis of the deposited data

How the results depend on the processing

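Each log2 ratio of the 9 kinase genes was recomputed under 8 alternatives, and 66 of these 72 values stayed within the counting interval of the main value. PRKCZ remained beyond 2-fold under every scaling and filter run, from 3.42 (DESeq2 size factors) to 3.66 (GC trend removed). With FPKM pseudocounts its log2 ratio was 1.03 (pseudocount 1) and 2.77 (pseudocount 0.1), since a pseudocount of that size is large beside its level. PRKCA was at 0.27 by library totals and by FPKM with a pseudocount of 0.1. PRKD2 was at −0.11 with the GC trend removed and −0.21 by FPKM with a pseudocount of 1. The count of kinase genes lower by the 1.5-fold rule was 1 (PRKCI) with thinning and with the GC trend removed, in place of 0. Over all compared genes 1592 were lower with thinning and 1385 with the GC trend removed, in place of 1574. By library totals all genes had a median of 0.13 in place of 0.02, and 13 list genes were then higher in place of 7, and 7 lower in place of 9. By DESeq2 size factors all genes had a median of −0.03, and 7 list genes were higher and 13 lower, beside 1531 higher and 1747 lower over all compared genes. A minimum of 5 CPM left 5 list genes lower in place of 9 and 6 higher in place of 7, as fewer genes were tested. Over all genes it left 1097 lower by the 1.5-fold rule in place of 1574, and 1023 higher in place of 1725. Beyond 2-fold it left 162 of all genes higher in place of 285, and 232 lower in place of 317. Point ratios alone put 703 genes over 2-fold higher and 631 lower, in place of 285 and 317. No paired analysis was possible because each group held 1 library. Depth limits PRKCH and PRKD1, with at most 11 counts in a library.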
